A study of Homo sapiens with 2 samples.

Results

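The genes described here are 37 genes of homologous recombination, the Fanconi anemia pathway and the signalling that calls on them, chosen by name from their known function. They are 37 of 21341 genes that have a RefSeq gene model on 1 chromosome of the build hg18 with 300 or more exonic bases in the deposited assemblies. Of these 37, 36 reached a mean of 1 FPKM over both libraries, as did 12041 genes in all. FPKM is the number of fragments per kilobase of exon, scaled to the depth of the library.

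Poly(A) RNA was sequenced from HCT116, an established human colorectal carcinoma line, carrying a T-Rex construct that gives a tetracycline-inducible knockdown of USP49, a protease that takes ubiquitin off histone H2B. There was 1 library labelled USP49 knockdown, from cells harvested 36 h after doxycycline, and 1 library labelled control. Both came from the same engineered line kept under blasticidin and puromycin, and the treatment text of the labels is the same for both, while the chromatin part of the protocol speaks of uninduced control cells. With 1 library per group there was no replicate check, no p-value could be computed, and every interval given covers counting error only.

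Homologous recombination repairs a broken chromosome by copying an intact sister. The MRE11A, RAD50 and NBN complex and RBBP8 (CtIP) trim the broken ends, BRCA1 with BARD1 and PALB2 brings in BRCA2, and BRCA2 with the paralogs RAD51C, RAD51D, XRCC2 and XRCC3 prepares the strand for exchange, which RAD54 proteins and the helicases finish. The Fanconi proteins act on crosslinked DNA: a core complex ubiquitinates FANCD2 and FANCI, which call in nucleases and recombination. ATM and ATR are the kinases that signal breaks and stalled forks to CHEK2 and CHEK1. Tumour cells that divide fast express most of these genes, and colorectal lines such as HCT116 are used to study them.

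The libraries held 19936414 fragments in knockdown and 16356792 in control, and all levels are scaled to these totals. The targeted gene did not separate the libraries on its exons. USP49 had 1.09 FPKM in the knockdown library and 0.895 FPKM in the control library, a ratio of 1.22 (95% interval 0.827 to 1.81). The sum over models that carry its name was 1.11 FPKM in knockdown and 2.89 FPKM in control. The loss of USP49 RNA was therefore not shown by both measures, and "knockdown library" is used here by label. All 8 epithelial markers checked, among them EPCAM and KRT19, were above 1 FPKM in both libraries. Their summed level was 606 FPKM in knockdown and 665 FPKM in control, with 7 of 8 lower in knockdown and 6 counting intervals wholly below 1 (KRT19 ratio 0.898, 0.870 to 0.926). The part of this shift in the ratios below was not tested. Of the intestinal markers CDX2 had 7.48 FPKM in knockdown and 8.28 FPKM in control, while CDX1 and VIL1 were listed at 0 in both. Over 5 fibroblast markers only COL1A1 passed 1 FPKM, over 6 blood markers only CD68 did, and none of 3 endothelial markers did. CD68 had 12.6 FPKM on exons in knockdown and 9.12 FPKM in control (ratio 1.38, 1.19 to 1.61), with models of its own name at 0 in knockdown, and the blood markers PTPRC and HBB were listed at 0 in both.

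On exons, 34 of the 36 measured genes in the knockdown library lay within 1.2-fold of the control library. The other 2 are described apart: RAD51D was listed at 0 in control, and the RAD52 fragments came from unlike models in the libraries. In RNA from a whole culture, fewer cells that express a gene and less RNA per cell cannot be told apart. Past 2-fold, 1 of 36 was higher (RAD51D), against 0.299% of all genes, and 0 of 36 were lower, against 0.482%. Past 1.2-fold, 1 of 36 was higher, against 2.05% of all genes, and 1 of 36 was lower (RAD52), against 3.77%. Without RAD51D and RAD52 all 4 counts were 0 of 34. The median log2 ratio, knockdown over control with a pseudocount of 1, was 0.08 over the 36 genes and -0.00 over all genes, whose central 95% ran from -0.31 to 0.24. The 34 genes ran from -0.13 (XRCC3) to 0.21 (FANCL). Of them 26 lay above 0 and 8 below, and 27 of the 36 lay above 0, against 48.7% of all genes.

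The counting interval of the ratio lay wholly above 1 for 15 of the 36 genes, against 13.0% of all genes, and wholly below 1 for 3, against 14.1%. Base composition moved with these ratios. The median GC content of the longest coding transcript was 42.4% for the 36 genes and 48.9% for all genes. With all genes put into 4 GC bins of equal size, the median log2 ratio of all genes was 0.07 in the lowest bin and -0.09 in the highest. Of the 34 genes, the 18 in the lowest bin had a median of 0.11 and the 5 in the highest bin a median of -0.04. After the median of all genes of like GC content was subtracted, the median of the 36 genes was 0.03. Of the 34 genes 27 then lay above 0, 23 of them among the 26 that lay above 0 without it. The correction itself sets the median of all genes to 0, so about as many of all genes lie above it as below.

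**Figure D1:**
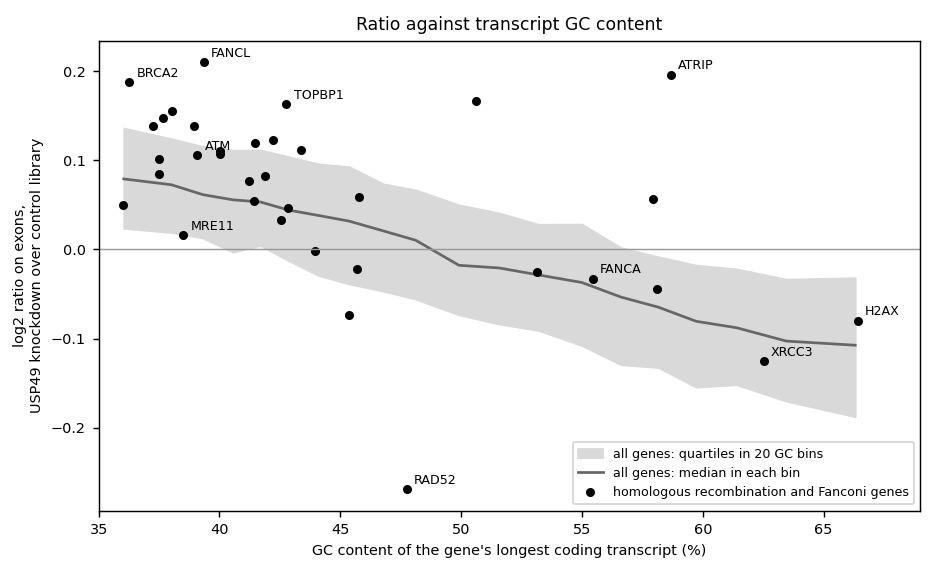
Log2 ratio on exons, knockdown over control library, against the GC content of the longest coding transcript in percent. Each point is 1 of 35 genes with fragments in both libraries, the line is the median of all genes in 20 GC bins and the band their quartiles; both the line and most points fall as GC content grows.

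Among the BRCA complex and the factors that work with it, all 5 genes had log2 ratios between 0.05 and 0.19. BRCA1, a ubiquitin ligase that steers breaks toward recombination, had 17.6 FPKM in knockdown and 16.6 FPKM in control (ratio 1.06, 1.00 to 1.13). Its partner BARD1 had 10.7 FPKM in knockdown and 9.50 FPKM in control (1.13, 0.989 to 1.28). BRCA2, which acts on resected single strands, had 5.88 FPKM in knockdown and 5.04 FPKM in control (1.17, 1.07 to 1.27), an interval wholly above 1, while that of BARD1 included 1. PALB2, the bridge between BRCA1 and BRCA2, had 12.0 FPKM in knockdown and 11.6 FPKM in control (1.04, 0.941 to 1.14). RBBP8, which starts end resection with the MRE11A complex, was the most abundant of the group, with 46.1 FPKM in knockdown and 42.8 FPKM in control (1.08, 1.02 to 1.14). In control, 19.9% of the fragments on BRCA1 exons came from a 23-exon assembled model with no gene name. On models named BRCA1 alone the log2 ratio was 0.38, against 0.08 on exons.

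The paralogs RAD51C, RAD51D, XRCC2 and XRCC3, which assist strand exchange, differed widely in level among themselves. RAD51C, shared by both paralog complexes, had 88.3 FPKM in knockdown and 81.0 FPKM in control (ratio 1.09, 1.03 to 1.16). Its partners were several times less abundant. XRCC2 had 13.4 FPKM in knockdown and 13.1 FPKM in control (1.03, 0.924 to 1.14). XRCC3 had 19.8 FPKM in knockdown and 21.7 FPKM in control (0.913, 0.835 to 0.998), the lowest ratio among the 34 genes. The motor proteins RAD54L and RAD54B, which act during strand exchange, did not differ beyond counting error. RAD54L had 18.6 FPKM in knockdown and 18.98 FPKM in control (0.982, 0.901 to 1.07), and RAD54B had 8.11 FPKM in knockdown and 7.49 FPKM in control (1.08, 0.998 to 1.17). RAD54B shares 5403 of its 8477 exonic bases with FSBP, so fragments there cannot be assigned to 1 of them. Its density on exons is spread over all of these bases. The 15-exon RefSeq form of RAD54B, of 3074 bases, stood higher, at 17.7 FPKM in knockdown and 16.6 FPKM in control.

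RAD51D, another paralog at chr17:30450925-30471001 on the minus strand, had 427 fragments in the knockdown library, or 8.29 FPKM, all on its 7-exon RefSeq form. In the control library all 5 of its RefSeq forms were listed at 0. No fold is given against a listed 0. The neighbour RFFL is an E3 ubiquitin ligase gene that annotated read-through forms join to RAD51D. It held 1476 fragments on its models in knockdown and 929 in control, a ratio of 1.304 after scaling to depth. For both genes together the ratio was 1.68, which includes the RAD51D fragments listed in knockdown only. Where fragments of RAD51D were placed in control was not tested. MDC1 and its neighbours TUBB and FLOT1, described below, were listed at 0 in both libraries, and RAD51D in control only.

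RAD52, an annealing protein on the minus strand of chromosome 12, had 3.23 FPKM on its exons in knockdown and 4.10 FPKM in control (ratio 0.788, 0.636 to 0.977). In knockdown all 172 fragments on its exons came from a model of the convergent neighbour WNK1 that ran from 731973 to 892875, past the low end of RAD52 at 891516, and models named RAD52 were at 0. In control they came from a 2-exon assembled model of 756 fragments that carries 1 of the 11 RefSeq introns. No model with fragments in either library carried more than 1 RefSeq intron of RAD52, and the ratio does not compare the same RNA.

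MDC1, the adaptor that reads phosphorylated H2AX and brings repair proteins to breaks, was listed at 0 in both libraries. Its model at chr6:30775563-30793437 is listed on 3 sequences of the build, chromosome 6 and 2 alternative versions of the region. TUBB, a tubulin, and FLOT1, a membrane scaffold, are neighbours of MDC1 that cells use widely, and both were listed at 0 in both libraries too. The level of MDC1 cannot be read from these files.

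The ends of a break are first held by the MRN complex. RAD50, its long coiled-coil subunit, had 27.1 FPKM in knockdown and 26.1 FPKM in control (ratio 1.04, 0.9896 to 1.09). NBN, which recruits ATM, had 36.8 FPKM in knockdown and 33.3 FPKM in control (1.10, 1.05 to 1.16). The nuclease subunit MRE11A (now MRE11) had 10.7 FPKM in knockdown and 10.6 FPKM in control (1.01, 0.927 to 1.11), the flattest of the 3. MRE11A differed by less than counting error on exons, while its transcript models differed.

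MRE11A lies at chr11:93790115-93866688 on the minus strand, with RefSeq forms of 20 exons and of 19, the shorter one lacking exon 16. A transcript of MRE11A without exon 5 is known from colorectal lines that lack mismatch repair, HCT116 among them. In the control library 820 of its 1508 model fragments were on an assembled 17-exon model that joins exon 4 to exon 6 and leaves out exon 5. That is 54.3% (exact 95% interval 51.8 to 56.9). In the knockdown library no model without exon 5 was listed, and its 1766 model fragments were on models with the exon. A form that the assembler did not list cannot be seen here: over the 37 genes no listed model with fragments held less than 10.7% of its gene. The sequences show what the models include, 5′ to 3′, taken from the GENCODE 29 transcript that is paired with the 20-exon RefSeq form (GRCh38). Exon 5 has 88 bases, at chr11:94479674-94479761 on the minus strand, and capitals mark the exon on the far side of each junction.
MRE11A exon 5: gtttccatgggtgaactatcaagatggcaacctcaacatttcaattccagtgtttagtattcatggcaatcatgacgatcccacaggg
MRE11A exon 4 to exon 5: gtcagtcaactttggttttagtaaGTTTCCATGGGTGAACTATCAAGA
MRE11A exon 4 to exon 6: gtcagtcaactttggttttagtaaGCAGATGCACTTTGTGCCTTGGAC
The remaining control models were the 20-exon RefSeq form, with 352 fragments, and an assembled model of 10 exons that begins downstream of exon 5, with 337. Counting only models that span exon 5, the control share without it was 70.0% (67.3 to 72.6). These are shares of fragments, which grow with model length, and not of transcripts. The model without exon 5 has 11172 bases and the 20-exon form 5140. Per length they were closer in control, at 4.50 FPKM and 4.22 FPKM.

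The main knockdown model of MRE11A differed at the same place in another way. It held 1174 of 1766 fragments, or 66.5% (64.2 to 68.7), and kept exon 5, but ended exon 4 at a donor 4 bases upstream of the RefSeq one. The model has 11335 bases and stood at 5.22 FPKM, against 3.27 FPKM for the 20-exon form of 5140 bases. No control model used the upstream donor. The capitals below are the 4 bases it leaves out of exon 4, and they begin with GT, the letters with which most human introns begin.
MRE11A end of exon 4: gtcagtcaactttggttttaGTAA
Neither 88 nor 4 is a multiple of 3. Read from the annotated start codon, the 20-exon form is open for 708 codons. Without exon 5 the frame meets a stop codon in exon 6, after 114 codons, 10 codons past the junction. With the upstream donor it meets one in exon 5, after 107 codons. By this annotation both models are out of frame beyond exon 4. The full 20-exon form held 18.8% of the knockdown fragments and 23.3% of the control fragments. The 19-exon RefSeq form, described below, lacks 84 bases, which is a multiple of 3. Both RefSeq forms together held 33.5% of the fragments in knockdown and 23.3% in control.

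The 19-exon RefSeq form of MRE11A held 260 of 1766 fragments in knockdown, or 14.7% (13.1 to 16.4), and 0 of 1508 in control. It lacks the 84 bases of exon 16, shown here as the annotated difference between the RefSeq forms.
MRE11A exon 16: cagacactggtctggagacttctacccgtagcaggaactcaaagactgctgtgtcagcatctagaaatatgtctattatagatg
The main assembled models of both libraries also retained the same 2 introns, of 4529 and 1354 bases. All of these are numbers of fragments that Cufflinks spread over whole models, not reads across a junction, so the share of a model stands for its whole chain of exons. Over 11115 genes with introns and fragments in both libraries, 0.684% had 50% or more of their fragments on exon-skipping models in control and none in knockdown, and 0.63% had the reverse. Of 32 genes here with introns and fragments in both, MRE11A alone met the control condition and none met the reverse.

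**Figure D2:**
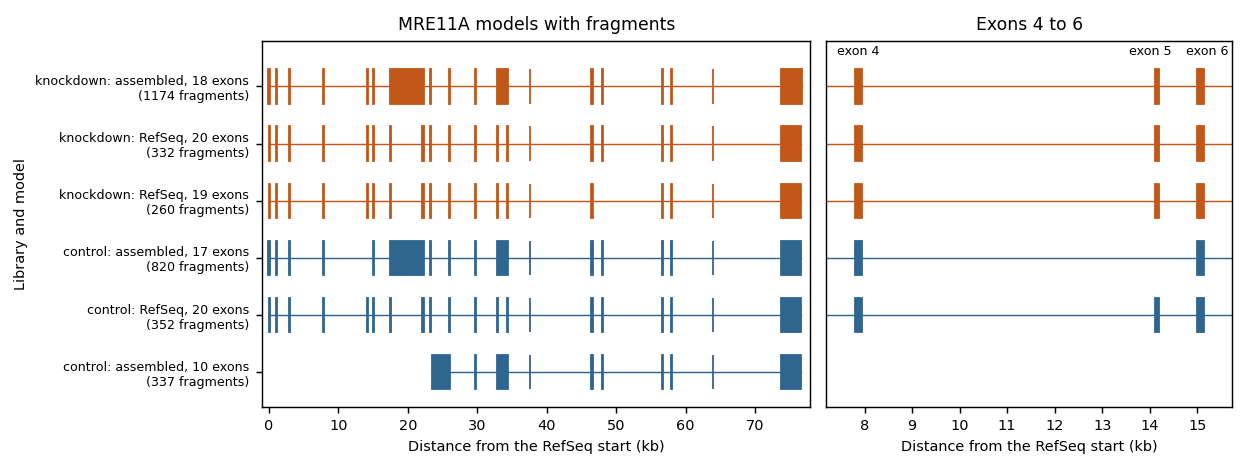
Every MRE11A model with fragments, by distance from the RefSeq start in kb, knockdown models above control models, with boxes for exons and the fragments of each model at the left. The right panel enlarges exons 4 to 6: the main control model has no box at exon 5, while the 3 knockdown models have one.

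The checkpoint genes had log2 ratios between 0.06 and 0.20, all above 0. ATM, the kinase for breaks, had 8.25 FPKM in knockdown and 7.59 FPKM in control (ratio 1.09, 1.02 to 1.16). ATR, the kinase for stalled forks, had 12.0 FPKM in knockdown and 11.03 FPKM in control (1.09, 1.02 to 1.16). ATRIP, which carries ATR to single-stranded DNA, had 13.0 FPKM in knockdown and 11.2 FPKM in control (1.16, 1.04 to 1.29). ATRIP stood apart in that its transcript is GC rich, at 58.7%, and its log2 ratio of 0.20 became 0.26 after the GC correction. TOPBP1, the activator of ATR, had 36.5 FPKM in knockdown and 32.5 FPKM in control (1.12, 1.07 to 1.18). The effector CHEK1 had 26.9 FPKM in knockdown and 24.7 FPKM in control (1.09, 1.03 to 1.16). CHEK2, the effector of ATM, had 14.8 FPKM in knockdown and 14.1 FPKM in control (1.04, 0.926 to 1.18), and was the member of this group whose interval included 1.

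Both measured chromatin adaptors had ratios below 1. TP53BP1, which holds back end resection, had 28.0 FPKM in knockdown and 28.4 FPKM in control (ratio 0.984, 0.937 to 1.03). H2AX (H2AFX), the histone variant that ATM marks around a break, was the most abundant gene of all 37, with 102 FPKM in knockdown and 108 FPKM in control (0.945, 0.899 to 0.995). Its transcript has the highest GC content of the measured genes, 66.4%, and its log2 ratio was -0.08 before the GC correction and 0.03 after it.

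In the Fanconi core complex 4 of 7 genes had ratios above 1. FANCC had 7.61 FPKM in knockdown and 6.67 FPKM in control (ratio 1.14, 1.03 to 1.26). FANCM, the translocase that anchors the complex on DNA, had 5.92 FPKM in knockdown and 5.25 FPKM in control (1.13, 1.01 to 1.25). FANCE, which contacts FANCD2, had 12.0 FPKM in knockdown and 11.5 FPKM in control (1.04, 0.925 to 1.18). FANCL, the ubiquitin ligase of the complex, had 32.2 FPKM in knockdown and 27.7 FPKM in control (1.16, 1.06 to 1.28), but 49.6% of those fragments in knockdown and 41.2% in control were on models not named FANCL, most of them of VRK2, which ends inside it from the other side. On FANCL models alone the log2 ratio was -0.01. FANCA and FANCG, which bind each other in the core, did not differ beyond counting error. FANCA had 32.3 FPKM in knockdown and 33.1 FPKM in control (0.977, 0.933 to 1.02), and FANCG had 29.6 FPKM in knockdown and 30.6 FPKM in control (0.969, 0.8997 to 1.04). FANCF, an adaptor with a gene of 1 exon, was the least abundant of the core, with 2.97 FPKM in knockdown and 3.18 FPKM in control (0.935, 0.758 to 1.15). FANCA shares exonic bases with ZNF276, whose models gave 11.5% of its exon fragments in knockdown and 10.5% in control.

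Of the pair that the core complex ubiquitinates, FANCI was more abundant than FANCD2 in both libraries. FANCI had 59.3 FPKM in knockdown and 54.9 FPKM in control (ratio 1.08, 1.04 to 1.13). FANCD2 had 22.3 FPKM in each library (0.999, 0.943 to 1.06). The helicase BRIP1 (FANCJ), a BRCA1 partner, had 11.4 FPKM in knockdown and 10.7 FPKM in control (1.07, 0.994 to 1.14). BLM and its partner RMI1, which dissolve joined DNA molecules, did not differ beyond counting error. BLM had 15.9 FPKM in knockdown and 15.03 FPKM in control (1.06, 0.978 to 1.15), and RMI1 had 27.2 FPKM in knockdown and 26.3 FPKM in control (1.04, 0.968 to 1.11). RAD54L, ATRIP, FANCD2, FANCI and WRN also share exonic bases with other genes, and models of other genes gave under 5% of their exon fragments in each library. WRN, the Werner syndrome helicase, had 12.5 FPKM in knockdown and 11.3 FPKM in control (1.11, 1.02 to 1.202).

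**Figure D3:**
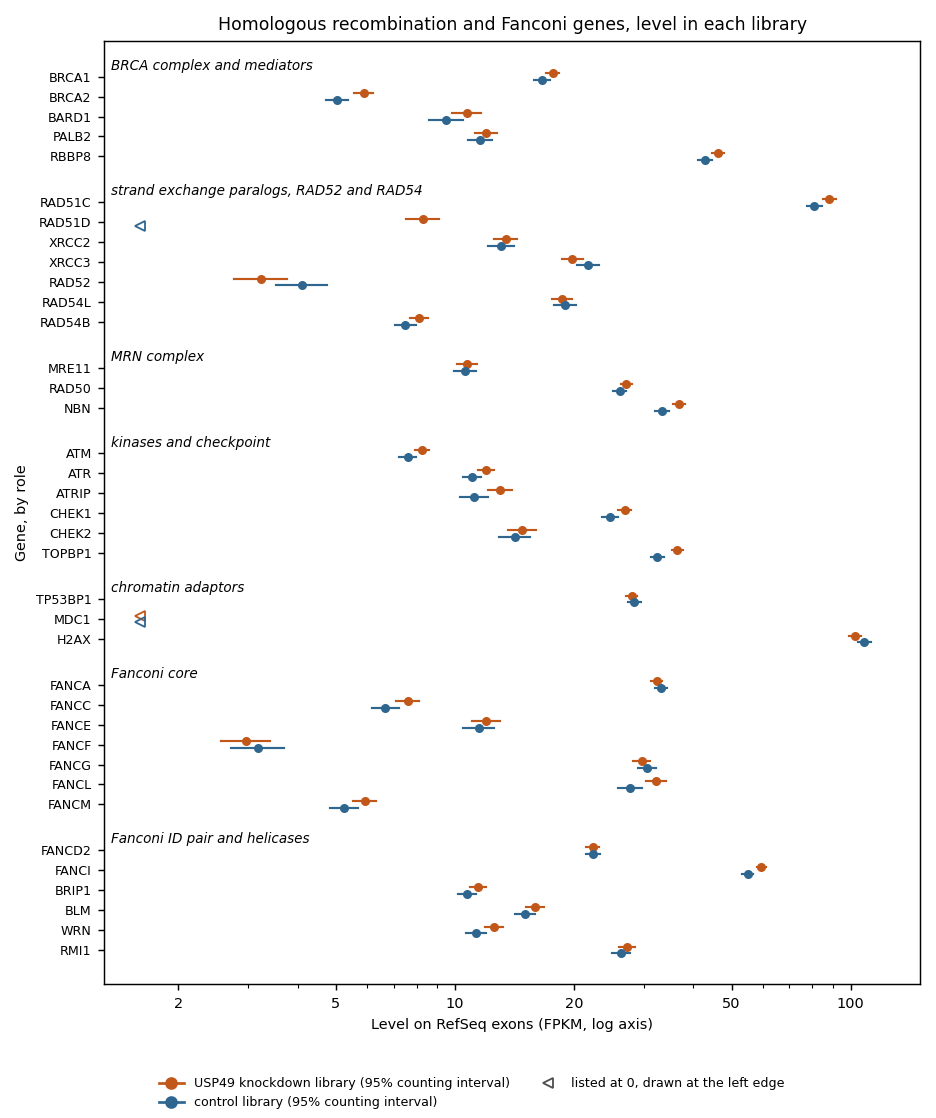
Level on RefSeq exons in FPKM, log axis, of each of the 37 genes, grouped by role, in the knockdown library (above, orange) and the control library (below, blue), with 95% counting intervals. Points of a gene lie close together across a range from about 3 FPKM for FANCF to over 100 FPKM for H2AX, and open triangles mark the genes listed at 0.

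The other measure, the sum of FPKM over every model that carries the gene's name, spread these genes far more. Past 2-fold by the sum were RAD51D, 1 of 36 higher against 1.44% of all genes, and RAD52, 1 of 36 lower against 1.62%, and 23 of 36 lay above 0 against 49.7%. RAD51D summed to 10.6 FPKM in knockdown and 0 in control, and RAD52 to 0 in knockdown and 6.51 FPKM in control. A gene at 0 in 1 library that reaches the minimum mean passes 2-fold whatever its level, so these 2 calls carry no weight. Of the 34 genes, 9 were 1.2-fold or more higher by the sum and 1 was 1.2-fold or more lower, and none of these 10 passed 1.2-fold on exons. Over all genes the sum put 9.84% at 1.2-fold or more higher and 11.6% lower. BRCA2 summed to 9.20 FPKM in knockdown and 5.06 FPKM in control (log2 0.75), and BARD1 to 14.5 FPKM in knockdown and 8.72 FPKM in control (log2 0.67). TOPBP1 summed to 49.3 FPKM in knockdown and 32.7 FPKM in control (log2 0.58). CHEK2 was the gene that was lower, with 17.1 FPKM in knockdown and 22.5 FPKM in control (log2 -0.37). For 8 genes the sum and the exon density lay on opposite sides of 0. This count and the split by models that follows were not made over all genes. The 12 genes whose models matched in their introns in both libraries, though not always in their ends, ran from -0.11 (XRCC2) to 0.29 by the sum. The assembled XRCC2 model had 5720 bases in knockdown and 5916 in control. The 22 genes with different models ran from -0.37 to 0.75 by the sum, while on exons those 22 ran from -0.13 to 0.21. In the 12, the 0.29 was BRIP1, for which 14.5% of the control exon fragments were on an unnamed 1-exon model over its last exon.

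**Figure D4:**
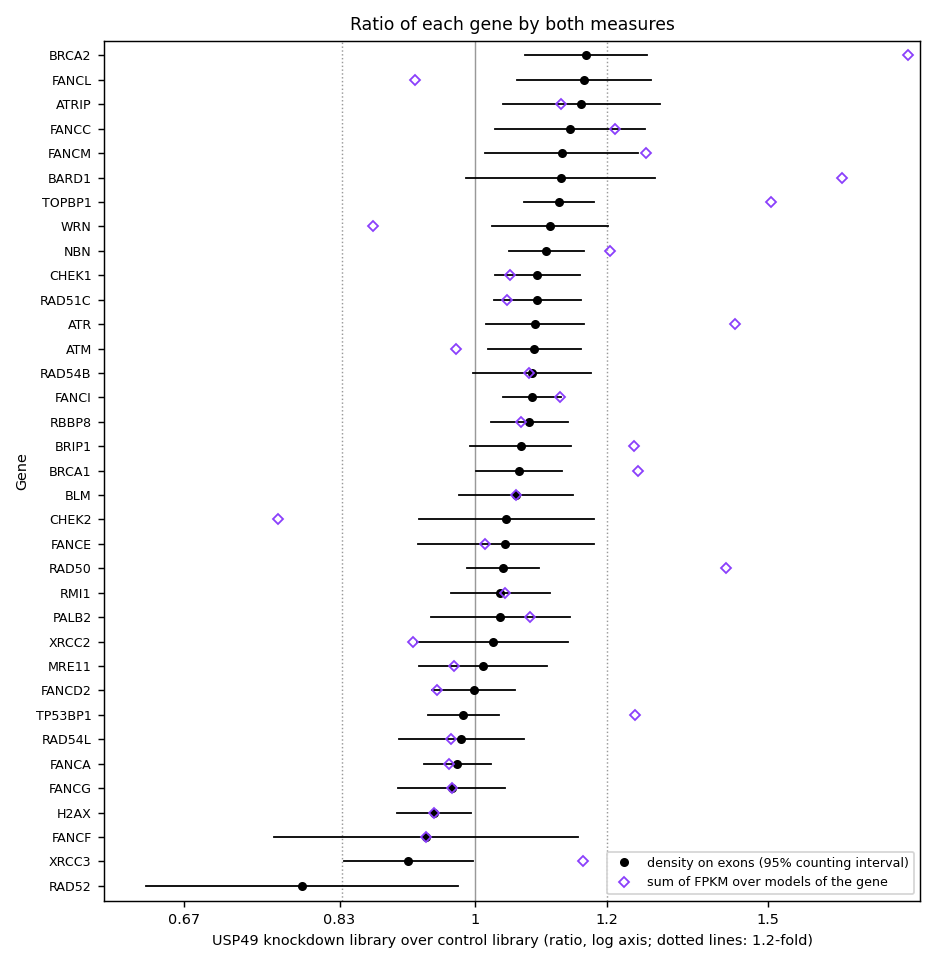
Ratio of knockdown over control library for 35 genes, log axis, sorted by the ratio on exons. Filled points are the density on exons with 95% counting intervals and open diamonds the sum over models of the gene; the filled points, RAD52 apart, stay between the dotted lines at 1.2-fold, while 12 diamonds lie outside them.

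Both assemblies were guided by RefSeq models, and a RefSeq model with fragments carries all of its introns. The RefSeq models of the 37 genes hold 743 introns, of which 683 were carried by a model with fragments in knockdown, 676 in control and 672 in both. The same count over all genes was not made, so whether this overlap is particular to these genes was not tested. Of 32 genes with introns and fragments on their models in both libraries, models with an unannotated or retained intron appeared for 14 in knockdown, against 35.1% of all genes, for 12 in control, against 34.9%, and for 7 in both, against 21.4%. Skipped exons appeared in models of 2 of 32 genes in knockdown, against 9.6% of all genes, and of 3 in control, against 9.95%. None of the 32 genes had such models in both libraries, against 4.04% of all genes. In knockdown they were exon 5 of BRCA2 (50 bases, on a model with 19.7% of its fragments) and exon 7 of RAD51C (61 bases, 14.9%). In control they were exon 5 of MRE11A, exon 8 of CHEK2 (62 bases, 35.8%), and exons 4 and 12 of NBN (160 and 69 bases, both on 1 model with 19.6%). Retained introns appeared for 5 of 32 genes in knockdown, against 9.51% of all genes, and for 3 in control, against 9.95%.

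Some structures recurred. TP53BP1 models retained the same 3 introns near the 3′ end in both libraries, on a model with 39.1% of its fragments in knockdown and 61.5% in control. RMI1 had a donor 113 bases upstream of the RefSeq one in both, on models with 56.4% of fragments in knockdown and 39.1% in control. NBN had an unannotated donor between exons 2 and 3, joined to exon 3, in both, with 15.3% in knockdown and 19.6% in control. FANCI has an annotated cassette exon, number 24 of 38, of 180 bases, and the RefSeq form without it held 22.6% of fragments in knockdown (21.5 to 23.7) and 16.5% in control (15.4 to 17.7). These are shares that Cufflinks divided between models, in 1 library each. Models of XRCC2 ran past the RefSeq 3′ end in both libraries, by 2651 bases in knockdown and 2847 in control, and so did models of BARD1, by 2648 bases in knockdown and 2908 in control.

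Small shifts of a splice site were seen in 1 library at a time. TOPBP1 in knockdown had a model, with 13.5% of its fragments, whose exon 8 begins 15 bases downstream of the RefSeq start, a shift that keeps the reading frame. The sequence shows the start of the 167-base exon at chr3:133652591-133652629 (GRCh38, minus strand), from the paired GENCODE 29 transcript. The capitals mark the 15 bases left out, which end in AG, the letters with which most human introns end.
TOPBP1 start of exon 8: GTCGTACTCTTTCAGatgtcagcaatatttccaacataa
BRCA1 in knockdown had an acceptor 3 bases downstream of a RefSeq one on a model with 29.01% of its fragments. FANCM in control had a donor 15 bases downstream of the RefSeq one on a model with 73.2% of its fragments.

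**Figure D5:**
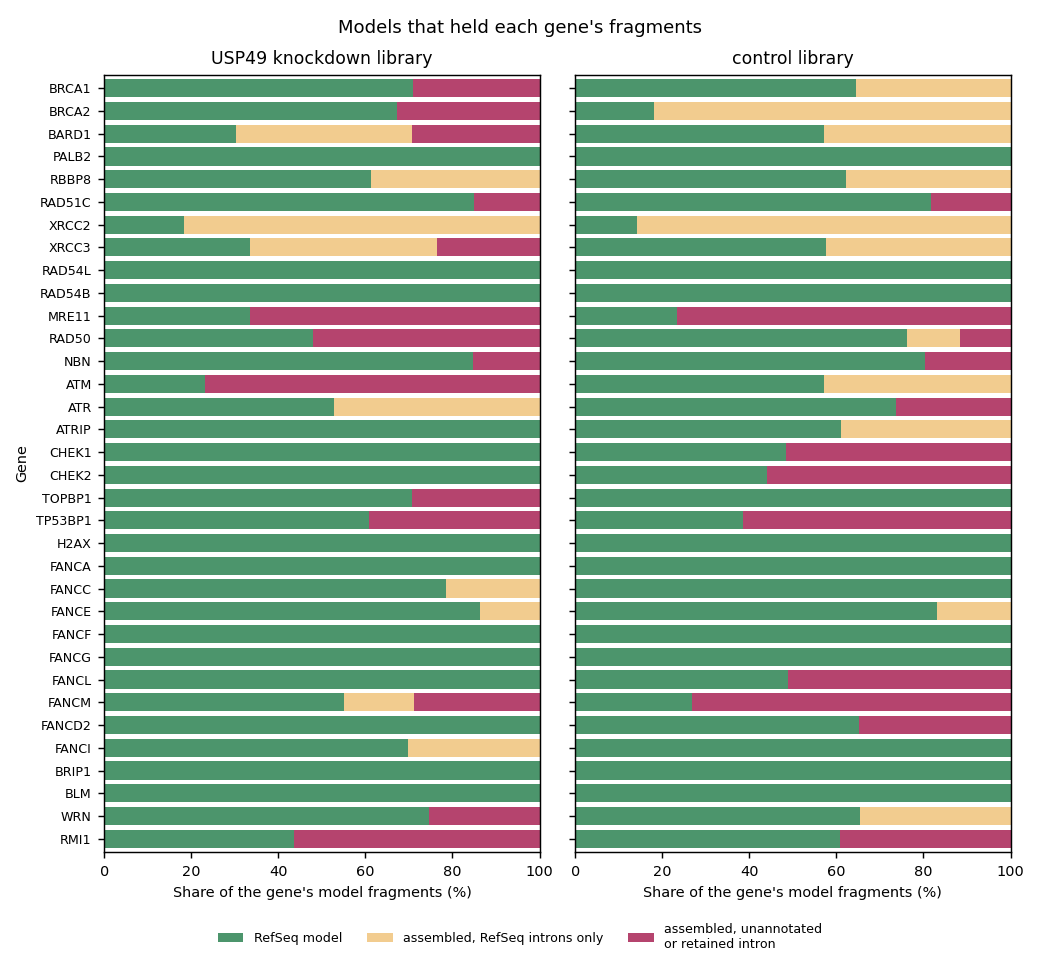
Share in percent of each gene's model fragments on RefSeq models, on assembled models with RefSeq introns only and on assembled models with an unannotated or retained intron, in the knockdown library (left) and the control library (right), for the 34 genes with fragments on their models in both. In both libraries 9 genes, among them PALB2, FANCA, FANCG and BLM, are wholly on RefSeq models, while MRE11A is mostly on assembled models in both. The count of 9 was not set against all genes.

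Other genes of the pathways, from lists chosen with earlier results of these data known, also stayed near even on exons, and none passed 2-fold. The counts of each list below stand against the following shares of all genes on exons. Above 0 lay 48.7%, past 2-fold 0.299% were higher and 0.482% lower, and past 1.2-fold 2.05% were higher and 3.77% lower. Of 27 measured genes of recombination, 17 were above 0 and 10 below (median log2 0.00), with 0 past 1.2-fold higher and 1 lower. EME1, a partner of the nuclease MUS81, had 12.9 FPKM in knockdown and 17.0 FPKM in control (log2 -0.38), and RECQL5, an antirecombinase helicase, had 14.5 FPKM in knockdown and 17.5 FPKM in control (log2 -0.25). At the other end were HELQ, a helicase, with 6.24 FPKM in knockdown and 5.21 FPKM in control (log2 0.22), and the resection nuclease DNA2, with 11.5 FPKM in knockdown and 10.0 FPKM in control (log2 0.18). HELQ lay below 0 by the sum, at -0.37. For EME1 the sum gave exactly 0, the value of a gene without fragments on models of its name in either library. The sum thus gives no comparison for EME1, and its exon levels would then come from models of other or unnamed genes.

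Of 16 further Fanconi and crosslink repair genes, 10 were above 0 and 6 below (median log2 0.04), with 2 past 1.2-fold higher and 0 lower. UBE2T, the conjugating enzyme that works with FANCL, had 113 FPKM in knockdown and 93.5 FPKM in control (log2 0.27; ratio 1.21, 1.13 to 1.29), and the sum gave 0.26. FANCB, a core scaffold on the X chromosome, had 5.37 FPKM in knockdown and 4.19 FPKM in control (log2 0.30), where the sum gave -0.12. FAAP100 (log2 -0.19) and FAAP20 (log2 -0.18), both core subunits, were the lowest.

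Of 16 measured genes of checkpoint signalling, 11 were above 0 and 5 below (median log2 0.05). RAD9A, a clamp subunit, had a log2 ratio of -0.19 on exons and, like EME1, exactly 0 by the sum. RIF1, a partner of TP53BP1 (log2 0.17), and CDC25A, the phosphatase that CHEK1 opposes (log2 0.15), were highest. Of 13 genes of end joining and strand break repair, 7 were above 0 and 6 below (median log2 0.02), with 0 past 1.2-fold either way. XRCC4, the ligase partner in end joining, had the highest ratio (log2 0.20), followed by NHEJ1 (log2 0.11), and the polymerase POLM (log2 -0.16) and the nuclease DCLRE1C (log2 -0.11) the lowest.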

How the data were processed

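Both deposited files are transcript assemblies made by Cufflinks, per the file headers, guided by RefSeq models of hg18. TopHat, Bowtie, SAMtools, Picard and bedtools are also named in the submitters' processing notes, with no versions given. The FPKM values that the authors deposited for each model are not divided by depth. Each model's fragment number was therefore recovered from its FPKM, its length less 47 bases and its confidence interval. Where a locus has 1 model, this gave a whole number (within 0.02) for 93.2% of 22332 loci in knockdown and 93.5% of 20952 in control.

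Fragments of models on either strand, since per the labels' protocols the library does not mark strand, were spread evenly over each model and counted on RefSeq exons of genes with 300 or more exonic bases. Density was scaled to each library's total on the assembled chromosomes, and the log2 ratio used a pseudocount of 1 FPKM, where the 2 libraries averaged at least 1 FPKM. Intervals are exact Poisson, beta and Clopper-Pearson 95% intervals. Fragments are not molecules, so they cover counting error only. GC content was taken from GENCODE 29, where 11425 of 12041 genes had a value. Python 3.11.15 with numpy 2.4.6, pandas 2.3.3 and scipy 1.17.1 was used. The exon measure was tested on data simulated on the models of the control library. Model sets that differ between libraries were not covered by that test. The files turned out to hold no read counts, so no count model was run.

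The genes, the other pathway lists and the measure were chosen with earlier results of these data known. All 37 genes are described. Of the other lists, genes past 2-fold and the 2 highest and 2 lowest ratios of each are named, apart from an item that is not reported here. Alternatives were the sum over models, models of 1 strand or of the gene's name, other scalings, pseudocounts and minimums. After the data were seen, leaving out RAD51D and RAD52 and a correction for GC content were added.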

Additional observations from a re-analysis of the deposited data

How the results depend on the processing

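No leave-one-out fit and no test were possible with 1 library per group. No paired analysis was possible because each group has 1 library. The counts of genes past a threshold rest on few genes and moved with the measure. Past 2-fold lower there was 1 gene by the sum, by models of the gene's strand and by named models (RAD52 in each case), against 0. By each of these RAD52 was at 0 in knockdown. Past 1.2-fold higher there were 10 by the sum and 4 by named models, against 1, and past 1.2-fold lower there were 2 by the sum, against 1. With a minimum mean of 5 FPKM, and without RAD51D and RAD52, the counts past 2-fold higher, past 1.2-fold higher and past 1.2-fold lower were each 0, and a pseudocount of 5 gave 0 past 1.2-fold lower. Without scaling by depth the counts past 1.2-fold were 28 higher and 0 lower, with a median log2 ratio of 0.35, but the median of all genes was then 0.25. Under all alternatives the median of these genes stayed above that of all genes, by 0.03 with the GC correction and by 0.07 to 0.10 otherwise. The control share of MRE11A fragments on models without exon 5 was 70.0% over models that span it, against 54.3%. Of single ratios, 33 of 36 moved beyond their counting interval without scaling by depth, 15 by the sum, 4 by named models, 1 by models of the gene's strand and 1 with the GC correction. RAD51D and RAD52 apart, depth limits FANCF most, at 196 exon fragments in knockdown and 172 in control.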
